A study of Homo sapiens with 6 samples.

Results

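The urea cycle and glutamine enzymes were examined in HCCLM3 cells with and without overexpression of LINC00862. The set was named by gene symbol and holds 9 genes, CPS1, OTC, ASS1, ASL, ARG1, ARG2, NAGS, GLS2 and GLUL. Of these, 8 have values among the 35856 genes of the expression table, and OTC was not analysed here. HCCLM3 is an established human hepatocellular carcinoma line. Cells transfected with a LINC00862 vector (LINC00862, n = 3 libraries) were compared with cells transfected with an empty vector (Empty, labelled NC, n = 3 libraries), to ask which transcripts differ once the lncRNA is overexpressed. No treatment other than transfection is given for either group, and nothing states that the 3 libraries of a group came from separate cultures, so p-values may measure technical spread only. Polyadenylated RNA was sequenced from libraries whose second strand was marked with dUTP and digested, which keeps the strand of the RNA, and counts of reads and FPKM (fragments scaled by gene length and by library size) were given per gene. Total counts were 59648337, 58241123 and 59243210 in Empty 1, 2 and 3, and 68229070, 58781905 and 58913560 in LINC00862 1, 2 and 3.

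In the liver, the urea cycle turns toxic ammonia into urea. NAGS makes N-acetylglutamate, the activator without which the mitochondrial enzyme CPS1 does not run, and CPS1 joins ammonia and bicarbonate into carbamoyl phosphate. OTC then makes citrulline, ASS1 and ASL convert it by way of argininosuccinate to arginine, and arginase releases urea. Periportal hepatocytes carry these enzymes and the glutaminase GLS2, while GLUL, the glutamine synthetase, captures the remaining ammonia in the hepatocytes next to the central vein. Hepatocellular carcinomas often lose part of the cycle.

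The label of the overexpressed gene was checked first. LINC00862 (ENSG00000203721, minus strand of chromosome 1, 200253419 to 200374688) had 11, 21 and 6 counts in the Empty libraries and 145, 121 and 76 counts in the LINC00862 libraries. All LINC00862 libraries were above all Empty libraries, with a log2 fold change of 3.22 (SE 0.53, adjusted p = 0.000583, edgeR quasi-likelihood test with Benjamini-Hochberg adjustment over all genes tested). On the log2(FPKM + 1) scale, which compresses low genes, the difference was 0.46 by limma-trend. RBM47, an RNA binding protein gene that the study follows, went from 0.208 ± 0.0807 in Empty to 7.76 ± 0.740 FPKM in LINC00862 (SD, n = 3).

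Expression changed across the whole transcriptome, which sets the scale for the enzymes. Of 20741 genes that passed the filter on low counts, 64.2% were called at a false discovery rate of 0.05, 34.4% higher and 29.8% lower in LINC00862. FPKM did not overlap between the groups in 71.1% of the genes tested. Of the 8 enzymes with values, 7 passed the filter and ARG1 did not. The 7 tested were all called and none overlapped between the groups, with CPS1, ASS1, ARG2, GLS2 and GLUL higher and ASL and NAGS lower in LINC00862. With a call the common outcome in these libraries, the number of calls is not a result about the enzymes, and each is described by its levels. The median log2 fold change of all genes tested was 0.11, and it moved to 0.32 with upper quartile scaling and to -0.05 when scaled by library size only. Cell type markers were among the genes that differed, such as VIM (538.9 to 3.77 FPKM) and EPCAM (0.547 to 159.8 FPKM). Each group came from its own transfected cells, so an effect of LINC00862 and another difference between the 2 cell populations cannot be told apart. In bulk RNA, more cells with a transcript and more transcript per cell cannot be told apart either.

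**Figure D1:**
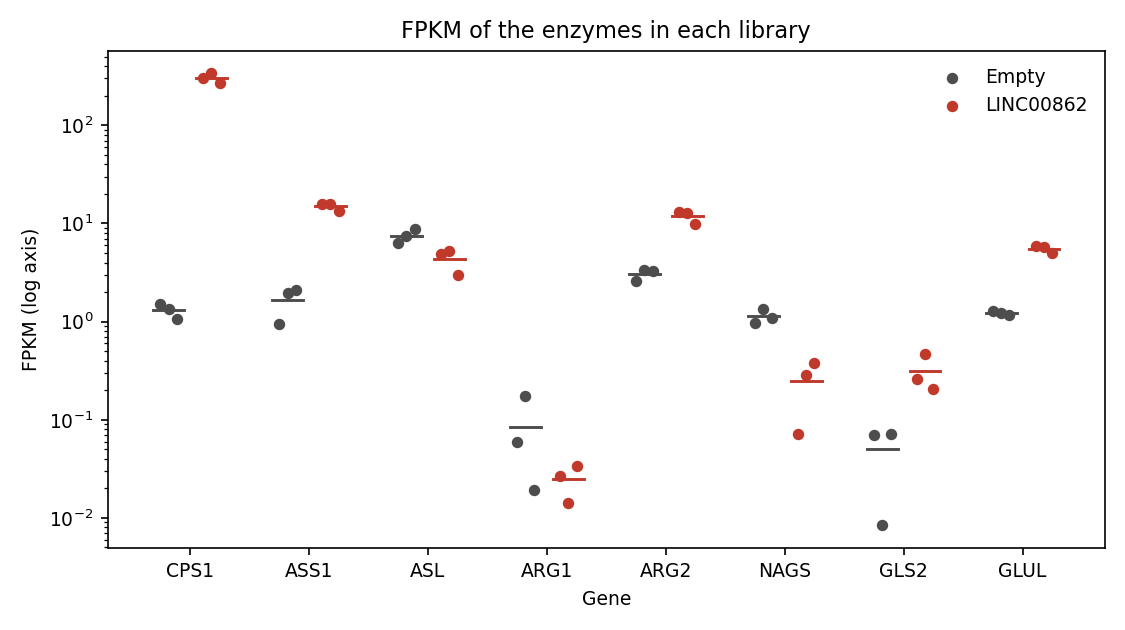
FPKM of the 8 enzymes on a log axis, with 1 point per library and a short line at the mean of the 3 libraries of a group. CPS1 lies between 1.07 and 1.49 FPKM in Empty and between 270.1 and 338 FPKM in LINC00862, and ARG1 is below 0.2 FPKM in each library.

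CPS1, the enzyme of the first step, showed the widest gap among the 7 enzymes tested. CPS1 (ENSG00000021826) lies on the plus strand of chromosome 2 from 210477682 to 210679107 (hg38, as in the deposited table). It had 1095, 967 and 791 counts in the Empty libraries and 257869, 246148 and 199435 counts in the LINC00862 libraries. In FPKM these were 1.49, 1.34 and 1.07 in Empty against 306, 338 and 270.1 in LINC00862. The groups were far apart and the 3 libraries of each were close together, with means of 1.302 ± 0.215 and 304.9 ± 34.2 FPKM (SD, n = 3) and a ratio of means of 234. The log2 fold change was 8.04 (95% interval 7.53 to 8.55, adjusted p = 2.95e-08, edgeR quasi-likelihood test). CPS1 took 0.378%, 0.419% and 0.339% of all counts in LINC00862 1, 2 and 3, and ranked 106, 96 and 99 by FPKM among all genes there, against 10624, 10576 and 11061 in Empty 1, 2 and 3. By the fitted rise it ranked 756 among the 7145 genes called higher. CPS1-IT1, a transcript inside CPS1 on the same strand, had 0 counts in each Empty library and 66, 85 and 80 counts in the LINC00862 libraries, at least 73.4-fold higher against 3 counts over the Empty group. Reads of the 2 genes could be shared, but the counts of CPS1-IT1 are small beside those of CPS1.

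NAGS, which makes the activator of CPS1, moved the other way. NAGS (ENSG00000161653, plus strand of chromosome 17, 44004622 to 44009068) had 0.978, 1.35 and 1.08 FPKM in the Empty libraries and 0.0711, 0.289 and 0.377 FPKM in the LINC00862 libraries. The groups did not overlap, and LINC00862 1, with 15 counts, lay well below LINC00862 2 and 3, with 53 and 70 counts. The log2 fold change was -2.02 (95% interval -3.28 to -0.76, adjusted p = 0.0106, edgeR quasi-likelihood test). The call ended at a false discovery rate of 0.01, and the difference was -0.78 by limma-trend on log2(FPKM + 1). CPS1 transcript was thus abundant in LINC00862 libraries in which NAGS transcript was below 0.4 FPKM.

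ASS1 and ASL, the consecutive enzymes that make and split argininosuccinate, differed in direction. ASS1 (ENSG00000130707, plus strand of chromosome 9, 130444961 to 130501274) had 191, 387 and 421 counts in the Empty libraries and 3635, 3187 and 2746 counts in the LINC00862 libraries. Its FPKM was 0.949, 1.95 and 2.08 in Empty, with Empty 1 lowest, and 15.7, 16.0 and 13.6 in LINC00862. The groups did not overlap, and the log2 fold change was 3.33 (95% interval 2.61 to 4.04, adjusted p = 2e-05, edgeR quasi-likelihood test). ASS1 has processed pseudogenes, to which reads can be misassigned. The 8 ASS1 pseudogenes in the table summed to 6, 13 and 10 counts in the Empty libraries and 19, 17 and 10 counts in the LINC00862 libraries, far below ASS1 itself.

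ASL (ENSG00000126522, plus strand of chromosome 7, 66075800 to 66094697) had 6.26, 7.37 and 8.85 FPKM in the Empty libraries and 4.83, 5.21 and 2.97 FPKM in the LINC00862 libraries. The highest LINC00862 library lay close under the lowest Empty library, so the groups were separate by a small margin. The log2 fold change was -0.64 (95% interval -1.15 to -0.13, adjusted p = 0.0319, edgeR quasi-likelihood test). The call was lost with upper quartile scaling (-0.43, adjusted p = 0.119), in the fit with a replicate block (adjusted p = 0.0627), at a false discovery rate of 0.01, in the test against a fold change of 2 (adjusted p = 1.0), and without Empty 2 (adjusted p = 0.0733), Empty 3 (0.0992), LINC00862 1 (0.0553) or LINC00862 3 (0.111), all by edgeR. Over the 14 alternative fits the adjusted p lay between 0.00873 and 1.0 and the log2 fold change between -0.80 and -0.43. Relative to the median of all genes the difference was -0.75 with TMM scaling and -0.76 with upper quartile scaling. The pseudogene ASLP1 had 0, 2 and 2 counts in the Empty libraries and 74, 57 and 72 counts in the LINC00862 libraries, against 1206 to 3569 counts of ASL. Reads that both could take make ASL uncertain, by an amount that was not tested.

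The arginases split by isoform. ARG1 is the cytosolic arginase of hepatocytes, and ARG2 is the mitochondrial arginase, found mainly outside the liver. ARG1 (ENSG00000118520, plus strand of chromosome 6, 131470832 to 131584332) had 10, 26 and 3 counts in the Empty libraries and 5, 3 and 6 counts in the LINC00862 libraries. The groups overlapped, and ARG1 was too low for the filter. Where the filter was dropped, edgeR gave ARG1 a log2 fold change of -1.38 (adjusted p = 0.289), and a difference was not detectable at this depth. The deposited span of ARG1 also covers MED23 on the opposite strand (2373, 1611 and 1142 counts in Empty), and MED23 was called lower in LINC00862. The libraries kept the strand, but whether counting used it is not given in the sources used here, and without it reads of ARG1 and MED23 could not be told apart.

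ARG2 (ENSG00000081181, plus strand of chromosome 14, 67619920 to 67651708) had 2.56, 3.32 and 3.28 FPKM in the Empty libraries and 13.03, 12.8 and 9.88 FPKM in the LINC00862 libraries. Each LINC00862 library was above each Empty library. The log2 fold change was 2.12 (95% interval 1.68 to 2.56, adjusted p = 1.65e-05, edgeR quasi-likelihood test). VTI1B overlaps ARG2 on the opposite strand and was at a log2 fold change of 0.00 (adjusted p = 0.98), with 4119 to 5049 counts per library.

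CPS1, ASS1, ARG2, GLS2 and GLUL were higher in LINC00862, as were 34.4% of all genes tested. The bases before the starts of the enzymes were searched for short motifs on both strands. RefSeq (GRCh38.p14) promoter entries matched all 9 enzymes with 13 start sites, and the first 250 bases of each window were read. The E-box CACGTG, which MYC family and other basic helix-loop-helix factors bind, occurred 71 to 66 bases before the ASS1 start at 130444961. The cAMP response element TGACGTCA occurred 172 to 165 and 64 to 57 bases before the ARG2 start at 67619920. Among all 35116 promoter windows of this length, 6.34% held the E-box and 1.65% held the cAMP response element. The other motifs searched were GGGCGG (GC box, in 42.6% of windows), CCAAT (in 11240 windows) and TATAAA (10.7%), with any overlap between motifs allowed. The runs around these matches are printed 5′ to 3′ on the plus strand, with the match in capitals, for the 2 enzymes that had such a match before a RefSeq start at the first base of the deposited gene.
ASS1, chr9:130444878-130444907: gcgcgtccccgcCACGTGtccccggtcacc
ARG2, chr14:67619670-67619797: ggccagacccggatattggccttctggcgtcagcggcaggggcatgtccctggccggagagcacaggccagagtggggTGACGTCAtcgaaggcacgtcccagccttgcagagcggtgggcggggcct
ARG2, chr14:67619845-67619874: caatgtggcggTGACGTCAcggggcgggcg
The first ARG2 run ends where the GENCODE 29 gene begins, and the other ARG2 run lies inside the first GENCODE 29 exon. ASS1 has another RefSeq start, at 130444707, whose window held no E-box and 2 GC boxes. The windows of NAGS, ASL, GLS2 and GLUL held neither the E-box nor the cAMP response element. GC boxes were found at ARG2 (5), NAGS (5), ASL (4), GLS2 (2) and both starts of ASS1 and of GLUL (2 each), and CCAAT boxes at ARG2 (2), ASL (2) and the GLUL start at 182391790 (2). TATAAA occurred 29 to 24 bases before the ARG1 start at 131573226 and 192 to 187 bases before the OTC start at 38352604. Of the CPS1 windows, 1 of 3, at the start 210519718, held an E-box and a CCAAT box. A match of letters does not show that a factor binds there.

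The glutamine enzymes GLUL and GLS2 were both higher in LINC00862. GLUL (ENSG00000135821, minus strand of chromosome 1, 182378098 to 182391792) had 1.28, 1.24 and 1.17 FPKM in the Empty libraries and 5.94, 5.72 and 5.00 FPKM in the LINC00862 libraries. The libraries of each group were tightly grouped, and the log2 fold change was 2.34 (95% interval 2.04 to 2.65, adjusted p = 9.76e-07, edgeR quasi-likelihood test). By limma-trend on log2(FPKM + 1) it was 1.55. The pseudogene GLULP4 had 2 counts in LINC00862 1 and 0 in the other libraries.

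GLS2, the liver-type glutaminase, stayed at a low level in both groups. GLS2 (ENSG00000135423, minus strand of chromosome 12, 56470944 to 56488414) had 25, 4 and 23 counts in the Empty libraries and 88, 135 and 60 counts in the LINC00862 libraries. The mean went from 0.04997 ± 0.0360 to 0.313 ± 0.140 FPKM (SD, n = 3). All LINC00862 libraries were above all Empty libraries, and the log2 fold change was 2.54 with a wide 95% interval of 1.12 to 3.97 (adjusted p = 0.00608, edgeR quasi-likelihood test). It was 1.44 by limma-trend on log2(FPKM + 0.1) and 0.32 on log2(FPKM + 1). SPRYD4 overlaps GLS2 on the opposite strand and rose too (769 to 923 counts in Empty, 1481 to 2193 in LINC00862), and if counting left the strand unused, reads of SPRYD4 and GLS2 could not be told apart.

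**Figure D2:**
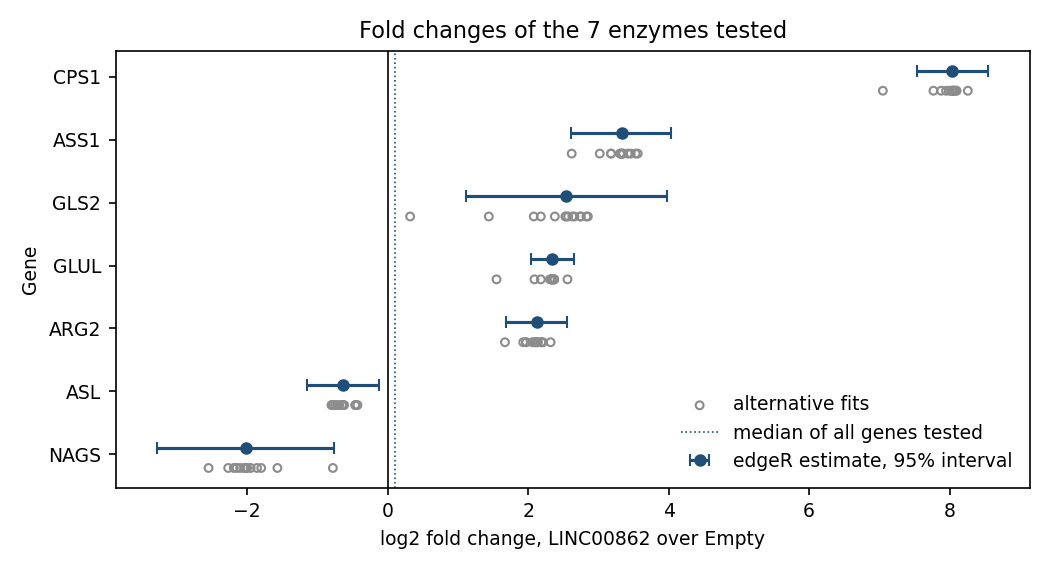
Log2 fold changes of the 7 enzymes tested, LINC00862 over Empty, with 95% intervals (filled points) and the 14 alternative fits (open points). The dotted line is the median of all genes tested, 0.11. CPS1 stands at 8.04, the next enzyme, ASS1, at 3.33, and ASL at -0.64 has the value nearest 0.

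The log2 ratio of ARG2 to ARG1, on FPKM + 0.1, was 4.07, 3.64 and 4.83 in Empty 1, 2 and 3, against 6.69, 6.82 and 6.22 in LINC00862 1, 2 and 3. With ARG1 at or under 0.175 FPKM, the ratio mostly sets ARG2 against the added 0.1 and is given as a description. The difference between the groups was 2.40, and it was 1.74 with 1 added in place of 0.1 and 2.64 from counts per library total.

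Ordered by level per length, the enzymes changed places between the groups. In Empty the order by mean FPKM was ASL (7.49), ARG2 (3.05), ASS1 (1.66), CPS1 (1.302), GLUL (1.23), NAGS (1.14), ARG1 (0.0842) and GLS2 (0.04997). The ranges of ASS1, CPS1, GLUL and NAGS overlapped, as did those of ARG1 and GLS2, so their order is not resolved. In LINC00862 the order was CPS1 (304.9), ASS1 (15.1), ARG2 (11.9), GLUL (5.55), ASL (4.34), GLS2 (0.313), NAGS (0.246) and ARG1 (0.0251), with overlap between GLUL and ASL and between GLS2 and NAGS. ASL had the highest mean level in Empty and place 5 in LINC00862.

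These levels depend on the length used. Over the 11052 annotated genes that reached 100 counts in each library, the length implied by count and FPKM followed the union of all GENCODE 29 exons of the gene, within 5% of a common factor in 85.7% of genes. For CPS1 the union is 10775 bases, the implied length 11014 bases and the longest coding transcript 5821 bases. After division by that factor, 5 of the 8 enzymes did not follow the union within 5%. Implied lengths lay above it for ASL (6039 against 3195 bases), GLUL (12641 against 9032), ARG1 (2483 against 1965) and GLS2 (4605 against 4141). For ARG2 the implied length lay below it (2284 against 2418). The deposited FPKM of ASL, GLUL and ARG2 thus used a length other than this union. ARG1 and GLS2 did not reach 100 counts in each library, so their implied lengths are uncertain and do not show which length was used. Per kilobase of the longest coding transcript, a scale added after seeing the data, CPS1 was at 650.0 ± 68.9 RPKM (SD, n = 3) in LINC00862. By its mean, GLUL then moved from the fifth to the third place in Empty and from the fourth to the third in LINC00862. On this scale the libraries of GLUL overlapped those of ARG2 in both groups and those of ASS1 in Empty, so its place is not resolved. ASL and CPS1 led their group on both scales.

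**Figure D3:**
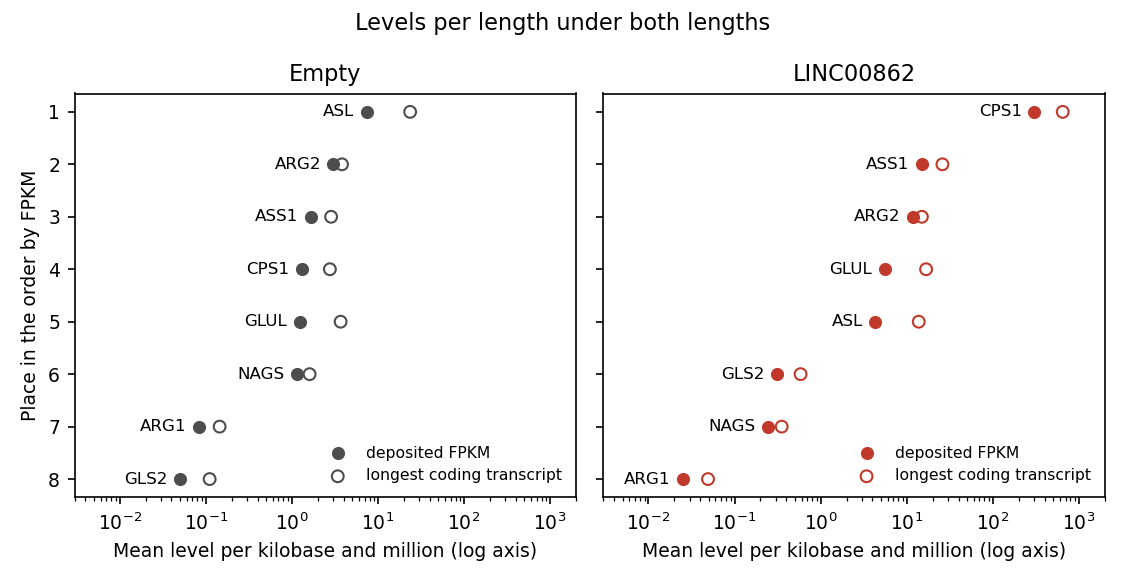
Mean level of the 8 enzymes in Empty (left) and LINC00862 (right), as deposited FPKM (filled) and per kilobase of the longest coding GENCODE 29 transcript (open), on a log axis and ordered by FPKM. ASL leads in Empty and CPS1 in LINC00862 on both scales, and GLUL shifts most in place.

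The genes with the most similar profiles over the 6 libraries were found by the root mean squared difference of centred log2(FPKM + 0.1). For CPS1 they were SYT13 (0.113) and SLPI (0.129), for ASS1 DDIT3 (0.133) and RPS21 (0.139), for ARG2 VPS72 (0.0718) and FLAD1 (0.0735), and for GLUL UQCRC2 (0.0273) and PITPNC1 (0.0549). For GLS2 they were AL365181 (0.151) and BFSP1 (0.153), for ASL GSTZ1 (0.0628) and ERGIC3 (0.0634), and for NAGS RPL23AP53 (0.169) and CORO6 (0.295). Genes next to the enzymes on the chromosome often did not move with them. LANCL1, 925 bases from CPS1, was at a log2 fold change of 0.06 (adjusted p = 0.798, edgeR), and both neighbours of ARG2, PIGH and RDH11, were not called. TMEM101, 2120 bases from NAGS, was called lower with it (-0.65, adjusted p = 0.0354, edgeR).

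Carriers and other users of arginine and ornithine surround the cycle. Their counts are read where 34.4% of all genes tested were higher and 29.8% lower. Of 6 carriers tested, 4 were called higher and 0 lower, with a median log2 fold change of 1.02 (0.35 by limma-trend on log2(FPKM + 1)). SLC7A2, a cationic amino acid transporter of the liver, rose from 0.221 ± 0.171 to 16.8 ± 1.81 FPKM (SD, n = 3), whereas the mitochondrial ornithine carrier SLC25A15 had 3.22 and 2.29 FPKM and was not called (adjusted p = 0.138, edgeR). SLC25A12, an aspartate and glutamate carrier of mitochondria, rose from 3.18 to 6.91 FPKM, the related SLC25A13 was at a log2 fold change of 0.35 (adjusted p = 0.0694, edgeR), and SLC7A1 had the smallest called rise, 0.73. Of 7 other arginine users, 5 were higher and 1 lower, but 1 of the 7, NOS3, passed the filter on low counts through LINC00862 alone, with no Empty library at the cutoff, so that a difference was built in. No median is given here for a list that holds such a gene. NOS1, a nitric oxide synthase, rose from 0.0106 to 2.44 FPKM, and AZIN2, an antizyme inhibitor, fell from 0.524 to 0.0620 FPKM.

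Among 12 ornithine, proline and polyamine enzymes, 5 were higher and 5 lower, with a median of -0.07 that turned to 0.14 with upper quartile scaling. The shares over all genes tested were 34.4% higher and 29.8% lower. The enzymes of proline synthesis ALDH18A1 (log2 fold change 1.43) and PYCR1 (2.17) were higher. PRODH, which starts proline breakdown, was higher as well (3.54), from 0.0799 to 0.884 FPKM. OAT, which links ornithine with glutamate, was lower (-1.56), as were ODC1 (-0.68), SRM (-1.42) and SMS (-3.06), the enzymes of polyamine synthesis. SMS went from 155.9 ± 10.2 to 16.6 ± 0.409 FPKM (SD, n = 3). SAT1, which acetylates polyamines for export or breakdown, was higher (2.16).

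Of 12 glutamate and aspartate enzymes tested, 9 were higher and 2 lower (median 1.38, or 0.68 by limma-trend on log2(FPKM + 1)). For this list and the transporters below, the shares over all genes tested were 34.4% higher and 29.8% lower. ASNS, the asparagine synthetase that uses glutamine, rose from 4.24 ± 0.228 to 51.2 ± 5.21 FPKM (SD, n = 3), and the aminotransferases GOT1, GOT2, GPT and PSAT1 were higher by log2 fold changes of 1.51, 1.06, 2.10 and 2.43. GLUD1, the glutamate dehydrogenase that releases ammonia, had 30.5 and 26.9 FPKM and was not called (adjusted p = 0.998, edgeR). ADSL, of purine synthesis and the purine nucleotide cycle, had the lowest log2 fold change of the list, -1.31. Of 12 transporters of glutamine and glutamate, 10 were higher and 0 lower (median 1.67), from SLC38A7 (0.47) to the glutamate transporter SLC1A2 (7.38). SLC1A5, a main route of glutamine into tumour cells, went from 47.7 ± 5.76 to 122.5 ± 25.7 FPKM (SD, n = 3), and the exchanger subunit SLC7A11 from 1.26 to 15.4 FPKM.

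Of 10 glutamine users in nucleotide and hexosamine synthesis, listed with the pyrimidine enzymes DHODH and UMPS, 1 was higher and 6 were lower (median -0.72). CAD, which holds the cytosolic carbamoyl phosphate synthetase of pyrimidine synthesis, was lower (log2 fold change -0.74, adjusted p = 0.00574, edgeR) in the libraries where CPS1 was higher. CTPS1 was at -1.73 and GFPT2 at -4.40. GFPT1, which takes glutamine into the hexosamine pathway, was the gene called higher, from 7.20 ± 1.70 to 83.5 ± 9.49 FPKM (SD, n = 3). In the annotation of the table, 13 of 18 tested genes of arginine biosynthesis were higher and 3 lower, with 7 of the 18 among the enzymes already described. Of the 11 others, NOS3 included, 8 were higher and 1 lower. For alanine, aspartate and glutamate metabolism, 25 tested genes lay outside the enzymes, of which 12 were higher and 8 lower, and 1 of the 8, IL4I1, passed the filter through Empty alone, so that its fall was built in. For the GO term urea cycle 3 did, of which 2 were higher and 0 lower (median 0.60). Over all genes tested, 34.4% were higher and 29.8% lower.

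Genes of the liver zones were read beside the enzymes, where 34.4% of all genes tested were higher and 29.8% lower. Of 7 periportal hepatocyte genes tested, 5 were higher and 1 lower, and 3 of the 5 passed the filter through LINC00862 alone. TAT, a tyrosine aminotransferase, had 0 counts in each Empty library and 102, 68 and 92 counts in the LINC00862 libraries, at least 83.2-fold higher against 3 counts over the group. HAL, a histidase, rose from 0.0248 to 1.72 FPKM, while SERPINA1, alpha-1 antitrypsin, fell from 1.29 ± 0.216 to 0.0950 ± 0.0428 FPKM (SD, n = 3). Of 10 pericentral and Wnt target genes tested, 7 were higher and 1 lower, and 1 of the 7, NKD1, passed the filter through LINC00862 alone. CYP2E1, RHBG and LGR5 of this list did not pass the filter, so the count does not cover them. RNF43 and NOTUM, feedback inhibitors of Wnt signalling, rose by 5.36 and 4.41, NKD1 went from 4, 0 and 0 counts in Empty to 106, 142 and 114 counts in LINC00862, TCF7 had the lowest (-3.54), and AXIN2 was not called (0.27, adjusted p = 0.554, edgeR). Of the enzymes placed in the periportal zone, CPS1, ASS1 and GLS2 were higher and ASL and NAGS lower, and the pericentral GLUL was higher in the same libraries.

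Of 13 regulators of urea cycle genes, 9 were higher and 3 lower, and 3 of the 9 passed the filter through LINC00862 alone. PPARGC1A, a coactivator of the fasting response of the liver, rose from 0.274 ± 0.0594 to 36.3 ± 3.50 FPKM (SD, n = 3), and KLF15, a regulator of amino acid breakdown, from 0.179 to 7.70 FPKM. CEBPA and FOXA2, factors of hepatocyte identity, rose from 0.0344 to 1.47 FPKM and from 0.00706 to 6.22 FPKM, with 0, 4 and 0 counts of FOXA2 in the Empty libraries. HNF4A had 0, 0 and 4 counts in Empty and 34, 24 and 14 counts in LINC00862, where it stayed at 0.0447 FPKM, and with no Empty library at the cutoff its call was built in, as was that of FOXA2. MYC was lower (109.5 to 41.9 FPKM), as was the glucocorticoid receptor NR3C1 (log2 fold change -0.89). The deacylase SIRT5, which acts on CPS1 protein, was higher (1.45).

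Markers of cell type moved with the groups, and their part in the enzyme results was not tested. Beside their counts stand the shares over all genes tested, 34.4% higher and 29.8% lower. Of 10 hepatocyte markers with values, 7 passed the filter, 4 of them (ALB, APOB, AMBP and TTR) through LINC00862 alone, so their rise was built in. Of the other 3, FGB and TF were higher and SERPINA1 lower. The list summed to 3.04, 2.94 and 3.46 FPKM in Empty 1, 2 and 3 and to 619, 549 and 539 FPKM in LINC00862 1, 2 and 3, mostly FGB and SERPINA1 in Empty (1.75 and 1.29 FPKM) and nearly all FGB in LINC00862 (550.4 FPKM). TTR and AMBP had 0 counts in each Empty library, and ALB reached 1.51 FPKM in LINC00862. Of 8 epithelial and biliary markers, 6 were higher and 1 lower, KRT19 through LINC00862 alone. The 1 lower was SOX9, from 13.17 to 0.625 FPKM (log2 fold change -4.20). Summed FPKM was 70.8, 81.6 and 96.6 against 349, 326 and 306. KRT7 led in Empty and EPCAM (0.547 to 159.8 FPKM) in LINC00862. Of 10 mesenchymal markers, 8 were lower and 1 higher, TWIST1 through Empty alone, with summed FPKM of 612, 669 and 669 against 15.3, 15.5 and 19.8, led by VIM (538.9 to 3.77 FPKM) in Empty and COL1A1 in LINC00862.

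Of 6 proliferation genes, 6 were lower (median -2.18), where 34.4% of all genes tested were higher and 29.8% lower. Their summed FPKM was 559.9, 533 and 529 in Empty and 102, 98.8 and 87.3 in LINC00862, led by PCNA in both groups. Of 7 macrophage and endothelial markers, 3 were higher and 0 lower (median 0.28), at summed FPKM of 5.03, 4.09 and 5.05 against 20.5, 20.9 and 13.5, led by CD14 in Empty and CD68 in LINC00862. Of 5 intestinal markers with values, 1 was tested and it was not called, and the list summed to under 0.4 FPKM in each library. The 9 mitochondrially encoded genes were all higher (median 1.42) and took 7.17%, 10.4% and 7.31% of counts in Empty 1, 2 and 3 and 17.1%, 16.3% and 24.9% in LINC00862 1, 2 and 3.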

How the data were processed

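RNA was sequenced from 3 Empty and 3 LINC00862 libraries of HCCLM3 cells. The deposited count is of raw reads for each gene, and the deposited FPKM was scaled by the authors for gene length and library size. The submitters' processing notes name cutadapt 1.9, HISAT2 2.0.4, UMI-tools, StringTie 1.3.4d, DESeq2, edgeR and hg38. The libraries kept the strand (dUTP in the second strand, removed by UDG), and the strand setting of counting is not given in the sources used here.

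Counts of the whole table were fitted with edgeR 4.0.16 in R 4.3.3 (filterByExpr, TMM, quasi-likelihood test, Benjamini-Hochberg adjustment over 20741 genes, false discovery rate 0.05), tested on simulated data. SEs were derived from the test statistic. Alternatives were DESeq2 1.42.0, other scalings, no filter, limma-trend (limma 3.58.1) on FPKM, a replicate block, leaving out each library, a stricter rate and a test against a fold change of 2. The floor was 3 counts over a group, and total counts of 58241123 to 68229070 set the depth. Floors cover counting error only. Lengths came from GENCODE 29. Python 3.11.15 and pandas 2.3.3 were used.

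The enzymes and gene lists were chosen with earlier results of these data known. Named genes are the enzymes, LINC00862, RBM47, the called genes with the highest and lowest log2 fold change of each list, list genes with a textbook role beside an enzyme, and the 2 nearest profiles per enzyme among tested genes whose mean FPKM reached 1 in a group. Some genes under this rule, and results that need them, are not reported here. Chromosomal neighbours, overlapping genes and pseudogenes were added after seeing the data. Proteomics and other assays of the study were not analysed here.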

Additional observations from a re-analysis of the deposited data

How the results depend on the processing

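Over the 14 alternative fits and a false discovery rate of 0.01, CPS1, ASS1, ARG2, GLUL and GLS2 kept their direction and call, so that 5 enzymes were called higher in each. NAGS lost its call at a false discovery rate of 0.01, and ASL in 8 of these 15 settings. The number of enzymes called lower was 2, but 1 with upper quartile scaling, 1 in the test against a fold change of 2 and 0 at a false discovery rate of 0.01. It lay between 1 and 2 without each library in turn. Upper quartile scaling moved the median of all genes from 0.11 to 0.32 and ASL with it. Without Empty 3 or LINC00862 3 the log2 fold change of ASL went from -0.64 to -0.46. Replicate numbers did not pair the libraries (correlations of deviations -0.05, -0.03 and -0.01), and with the replicate block 1 enzyme was called lower, since ASL had an adjusted p of 0.0627 (edgeR). LINC00862 itself kept its direction and call in every alternative tried, while its log2 fold change of 3.22 lay between 2.91 and 3.83 without each library in turn, with 3.83 without Empty 2.

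Over all genes 13321 were called, against 8010 in the test against a fold change of 2. Of 133 list medians under alternatives, 83 moved by less than the spread between libraries, and 49 moved by more in the same direction. Some lists hold genes that passed the filter through 1 group alone, so their medians are not read. Among lists without such genes, the log2(FPKM + 1) scale, which compresses low genes, took the median of carriers from 1.02 to 0.35 and of glutamate and aspartate enzymes from 1.38 to 0.68. The median of ornithine, proline and polyamine enzymes went from -0.07 to 0.14 with upper quartile scaling, along with the shift of all genes. Counts of under 30 per library limit ARG1 and, in Empty, GLS2.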
